A study of Rattus norvegicus with 6 samples.

Results

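The genes of the proteasome were followed in the maternal thyroid of late pregnant (LP) and non-pregnant (NP) rats. Every row of the count tables was taken whose symbol began with Psma, Psmb, Psmc, Psmd or Psme and a digit, without the immunoproteasome subunits Psmb8, Psmb9 and Psmb10, which gave 39 of the 15388 genes. All animals were adult Sprague-Dawley rats, and their exact age was not given in the sources used here. LP rats were on day 18 of pregnancy, counted from the vaginal plug as day 1, and NP rats were their non-pregnant controls. Thyroid tissue was sequenced as polyA+ RNA, with 3 libraries deposited for each group. Each row carried an Ensembl transcript identifier and a symbol.

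The proteasome is the large protease that degrades proteins tagged with ubiquitin in the cytosol and nucleus. Its 20S core is a barrel in which alpha rings form the gate and beta rings hold the catalytic sites. A 19S cap is placed on the end of the barrel, where an ATPase ring unfolds the substrate and the remaining subunits bind, trim and position the ubiquitin chain. Other caps, the activators, open the gate without using ATP. Cells restore proteasome gene expression after proteasome inhibition through the transcription factor Nrf1, the product of Nfe2l1. The thyroid secretes very large amounts of thyroglobulin, and misfolded secretory proteins are sent from the endoplasmic reticulum to the proteasome.

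The libraries held between 2752144 and 3449857 counted reads, and 3 reads in a library corresponded to 0.870 to 1.09 CPM (counts per 1e+06 counted reads). The counts of replicates 2 and 3 were within sampling noise of each other in NP (chi-square per degree of freedom 1.02, p = 0.111) and in LP (0.995, p = 0.667), whereas replicate 1 differed from them by 3.70 to 4.11 per degree of freedom. Replicates 2 and 3 of a group were therefore counted as 1 sample, so each mean ± SD had n = 2. Thyroglobulin (Tg) marked the tissue as thyroid, with 223863 to 250657 CPM in the 6 libraries. The LP libraries also carried skeletal muscle transcripts. Of 13 muscle markers tested 12 were higher in LP, the summed level of the list was 35.1 to 84.4 CPM in NP and 6014 to 6372 CPM in LP, and Myh1 had 0 reads in every NP library. Acta1 was at 0 in replicate 1 of both groups and at 47.5 to 55.4 CPM in the other libraries. Of the other marker lists, thyroid follicle had 3 genes higher and 2 lower of 10, C cell 1 and 1 of 5, parathyroid 0 and 1 of 3, endothelium 0 and 2 of 3, red blood cell 0 and 1 of 3, immune 1 and 0 of 4, airway 1 and 0 of 1, and adipocyte 0 and 0 of 3 (edgeR). The part of these cell types in the results below was not tested. Over all genes tested 12.3% were higher and 8.36% lower (edgeR).

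To ask whether proteasome gene expression differed in late pregnancy, the counts of LP and NP were tested by edgeR (quasi-likelihood), p-values were adjusted by Benjamini-Hochberg over 12326 genes, and an adjusted p below 0.05 was called a change. The differences of the proteasome genes were small. Psmb1 and Psma2, which encode a beta and an alpha subunit of the 20S core, fell by 0.37 and 0.36 on the log2 scale, and Psme4, which encodes the activator PA200, rose by 0.33. Of the 39 genes selected by symbol 37 had enough reads to be tested, among them Psmc3ip, which encodes no proteasome subunit. Of these 37 members, 1 (2.70%) was higher in LP, where 12.3% of all genes tested were called higher. Those called lower were 2 (5.41%), against 8.36% of all genes tested. None of the 37 was called with a fold change above 2, against 5.43% of all genes tested. An unadjusted p below 0.05 was found for 10 of the 37 (27.0%), against 32.2% of all genes (edgeR). Since this is bulk tissue, fewer cells of a type and less RNA per cell cannot be told apart.

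The calls depended on how the libraries were fitted. Same-numbered libraries of the groups deviated together, as did replicate 2 of each group with replicate 3 of the other, and with the replicate number as a block 2 members were higher and 6 lower, against 16.0% and 13.5% of all genes. Psmd2 was added to the higher calls, and Psma3, Psmb4, Psmc6 and Psmd13 to the lower calls. With the 6 libraries as deposited 2 members were higher and 4 lower, against 15.3% and 11.7%. DESeq2 called 0 members in either direction, against 6.76% higher and 2.73% lower over all genes, with 2 members at an unadjusted p below 0.05. Its adjusted p was 0.0577 for Psmb1, 0.0661 for Psme4 and 0.322 for Psma2. Replicates 2 and 3 were also set against replicate 1 within the blocked fit, and 0 members were called (edgeR, 2 at an unadjusted p below 0.05) against 2.12% of all genes.

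**Figure D1:**
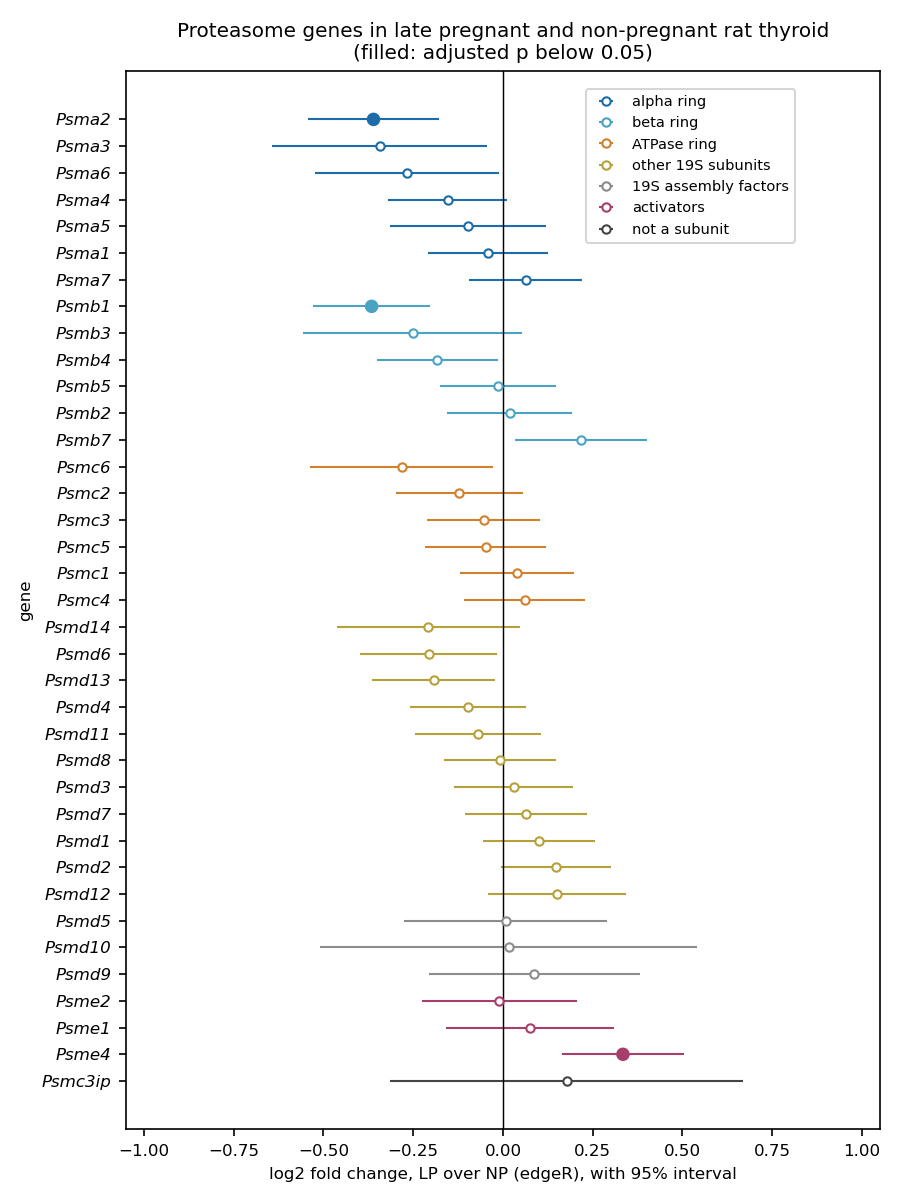
Log2 fold change (LP over NP, horizontal axis) of the 37 members tested, one gene per line, coloured by role in the complex. Points are edgeR estimates from 2 samples per group, bars are 95% intervals and filled points have an adjusted p below 0.05. Psma2 and Psmb1 lie to the left of 0 and Psme4 to the right, and all bars end within 0.67 of 0.

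Psmb1 (ENSRNOT00000002037) encodes a beta subunit without a catalytic site. It was at 142, 135 and 126 CPM in NP replicates 1, 2 and 3 and at 106, 106 and 105 CPM in LP. The groups did not overlap, and the LP libraries were nearly level. Its mean went from 136 ± 8.40 to 106 ± 0.276 CPM (SD, n = 2), a fold of 0.776 with a 95% interval of 0.693 to 0.869 (log2 fold change -0.37, SE 0.074, edgeR adjusted p = 0.00414).

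Psma2 (ENSRNOT00000073834) encodes a subunit of the alpha ring. It was at 63.8, 61.8 and 59.3 CPM in NP and at 48.1, 51.8 and 45.0 CPM in LP, so that every LP library was below every NP library. The fold was 0.779 with a 95% interval of 0.686 to 0.884 (log2 fold change -0.36, SE 0.083, edgeR adjusted p = 0.00939). RefSeq named 2 pseudogenes of Psma2 and none of Psmb1, while Psmb1 overlaps Tbp in that annotation. How much reads from copies or overlapping genes contributed was not tested.

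Psme4 (ENSRNOT00000088916) encodes PA200, a large single-chain activator of the 20S core. It was at 116, 118 and 125 CPM in NP and at 158, 139 and 150 CPM in LP, with no overlap and with LP replicate 1 the highest. The fold was 1.26 with a 95% interval of 1.12 to 1.42 (log2 fold change 0.33, SE 0.078, edgeR adjusted p = 0.00958). Without LP replicate 1, which leaves 1 LP sample, the log2 fold change was 0.26 and the call was lost (edgeR). The part of the smaller number of samples in this loss was not tested.

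The windows upstream of the start sites of these 3 genes are shown with those of Psma1, Psmb5 and Psmc1, the members of the alpha, beta and ATPase rings with the smallest changes, so that genes that moved can be read beside genes that did not pass the test. Each line gives 250 bases before the start site, 5′ to 3′ on the strand of the gene, from RefSeq on GRCr8. Capitals mark a match on either strand to TGACNNNGC, the core bound by Nrf1 and Nrf2, or to CCAAT, the box bound by NF-Y.
Psme4 (chr14:108706393-108706642, plus strand, rose): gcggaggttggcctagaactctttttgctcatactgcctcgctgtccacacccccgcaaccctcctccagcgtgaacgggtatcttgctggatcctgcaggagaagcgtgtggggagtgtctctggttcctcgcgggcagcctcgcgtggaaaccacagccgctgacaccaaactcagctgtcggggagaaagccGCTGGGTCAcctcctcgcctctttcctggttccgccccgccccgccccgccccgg
Psmb1 (chr1:65134771-65135020, minus strand, fell): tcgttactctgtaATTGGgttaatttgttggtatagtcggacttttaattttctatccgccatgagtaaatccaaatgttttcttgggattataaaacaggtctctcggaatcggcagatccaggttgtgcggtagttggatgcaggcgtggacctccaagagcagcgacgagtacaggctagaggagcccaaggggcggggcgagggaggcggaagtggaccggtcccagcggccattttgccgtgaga
Psma2 (chr17:55260442-55260691, minus strand, fell): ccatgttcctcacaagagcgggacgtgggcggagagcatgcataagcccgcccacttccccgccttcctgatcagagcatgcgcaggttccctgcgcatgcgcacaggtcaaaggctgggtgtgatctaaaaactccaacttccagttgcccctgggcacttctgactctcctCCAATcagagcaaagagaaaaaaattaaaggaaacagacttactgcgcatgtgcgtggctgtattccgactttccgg
Psma1 (chr1:177887858-177888107, minus strand, not called): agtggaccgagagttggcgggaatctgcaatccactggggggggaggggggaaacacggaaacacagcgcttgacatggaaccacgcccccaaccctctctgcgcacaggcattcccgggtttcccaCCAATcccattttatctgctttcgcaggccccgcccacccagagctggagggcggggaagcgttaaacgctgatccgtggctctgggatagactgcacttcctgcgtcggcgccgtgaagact
Psmb5 (chr15:32047380-32047629, minus strand, not called): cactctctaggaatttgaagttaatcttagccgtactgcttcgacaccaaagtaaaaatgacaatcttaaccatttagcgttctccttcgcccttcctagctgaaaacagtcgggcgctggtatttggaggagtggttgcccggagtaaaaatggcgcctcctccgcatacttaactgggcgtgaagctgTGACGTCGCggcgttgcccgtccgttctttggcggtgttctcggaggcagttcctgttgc
Psmc1 (chr6:125122247-125122496, plus strand, not called): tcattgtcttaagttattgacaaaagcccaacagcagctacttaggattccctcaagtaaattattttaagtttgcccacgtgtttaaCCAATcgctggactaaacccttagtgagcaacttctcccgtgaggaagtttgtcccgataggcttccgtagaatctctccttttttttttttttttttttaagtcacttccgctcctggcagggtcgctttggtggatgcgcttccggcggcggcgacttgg

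Psme4 and Psmb5 held a match to TGACNNNGC, and Psmb1, Psma2, Psma1 and Psmc1 a match to CCAAT, each window with 1 match, so no matches overlapped there. Both motifs were thus found in genes with and without a call. Over the 35 members with a single entry in the promoter table, 7 (20%) held TGACNNNGC, against 10.1% of 33469 promoters in windows of the same length. CCAAT was found in 17 members (48.6%), against 34% of the promoters. GAAANNGAA, the core of the interferon response element, was found in 6 members (17.1%), against 8.12%. Psma7, Psmd6, Psmd12 and Psmd14 were not searched. A match to these letters is a description of the window and not a binding site.

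The alpha ring had 8 members in the tables and 7 passed the filter. Psma2 fell, and the log2 fold changes of the others were -0.34 for Psma3, -0.27 for Psma6, -0.15 for Psma4, -0.098 for Psma5, -0.043 for Psma1 and 0.063 for Psma7. None of these 6 was called in the fit of 2 samples per group, with edgeR adjusted p from 0.103 to 0.834. Psma3 had an adjusted p of 0.103 and, with the replicate block, of 0.0381 (edgeR). Psma7, the alpha subunit with the most reads, was at 131, 141 and 136 CPM in NP and at 140, 142 and 142 CPM in LP, so the groups overlapped. Its fold was 1.04 with a 95% interval of 0.936 to 1.17. Psma8, which encodes the alpha subunit of the testis, had 0 to 2 reads in each library and was not tested.

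The beta ring had 7 members, of which 6 were tested. Of the catalytic subunits, Psmb5 (chymotrypsin-like) had a log2 fold change of -0.013 with a 95% interval of -0.17 to 0.15. Psmb7 (trypsin-like) was at 67.8, 76.3 and 75.1 CPM in NP and at 88.8, 79.2 and 84.3 CPM in LP, with every LP library above every NP library. Its fold was 1.16 with a 95% interval of 1.02 to 1.32, and it did not pass the test (edgeR adjusted p = 0.0943). The remaining catalytic subunit, Psmb6 (caspase-like), had 0 to 1 reads in each library, although cells need it to build the 20S core. RefSeq named 2 pseudogenes and the copy Psmb6l1 of this gene, and whether reads were lost to them was not tested. It is therefore given only as listed at 0 or 1 read.

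Psmb4, the beta subunit with the most reads, completes the ring during assembly. It was at 142, 126 and 143 CPM in NP and at 115, 136 and 119 CPM in LP, with LP replicate 2 inside the range of NP. Its log2 fold change was -0.18 (SE 0.077, edgeR adjusted p = 0.122, with the replicate block 0.0396). Psmb3 and Psmb2 are structural subunits, with log2 fold changes of -0.25 and 0.018 and edgeR adjusted p of 0.246 and 0.944. RefSeq named 7 pseudogenes and 3 further copies of Psmb3, the most of any member.

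The 6 genes of the ATPase ring, which unfolds the substrate and threads it into the core, were all tested and none was called in the fit of 2 samples per group. Psmc6 had the largest difference in this ring. It was at 36.9, 43.7 and 40.2 CPM in NP and at 35.9, 32.1 and 30.7 CPM in LP, and the gap between NP replicate 1 and LP replicate 1 was small. Its log2 fold change was -0.28 (SE 0.116, edgeR adjusted p = 0.116, with the replicate block 0.0447). Psmc3, with the most reads in the ring, was at 155, 161 and 151 CPM in NP and at 153, 147 and 148 CPM in LP, and the groups overlapped. The log2 fold changes of Psmc2, Psmc3, Psmc5, Psmc1 and Psmc4 were -0.12, -0.054, -0.048, 0.039 and 0.061, with edgeR adjusted p from 0.340 to 0.769.

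The 11 other 19S subunits make up the scaffold of the base and the lid. All were tested and none was called in the fit of 2 samples per group. Psmd14, the deubiquitinase that releases the ubiquitin chain, had the largest difference of these. It was at 40.5, 32.2 and 36.9 CPM in NP and at 33.0, 29.8 and 32.8 CPM in LP, with overlap at NP replicate 2. Its log2 fold change was -0.21 (SE 0.116, edgeR adjusted p = 0.252).

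Psmd2, a scaffold subunit on which ubiquitin shuttle proteins dock, had more reads than any other proteasome gene. It was at 250, 247 and 242 CPM in NP and at 278, 265 and 278 CPM in LP, with every LP library above every NP library. The fold was 1.11 with a 95% interval of 0.997 to 1.23 (edgeR adjusted p = 0.168), and with the replicate block its adjusted p was 0.00917. Psmd13, a lid subunit, was at 84.3, 86.1 and 95.9 CPM in NP and at 80.8, 77.1 and 73.3 CPM in LP. Its log2 fold change was -0.19 (edgeR adjusted p = 0.111, with the replicate block 0.0265).

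Psmd4 encodes a ubiquitin receptor and Psmd1 the large scaffold subunit of the base, and their log2 fold changes were -0.097 and 0.100. The lid subunits Psmd6, Psmd11, Psmd8, Psmd3, Psmd7 and Psmd12 had log2 fold changes of -0.21, -0.070, -0.0081, 0.030, 0.064 and 0.15. Among these 8 genes the smallest adjusted p was 0.122, for Psmd6 (edgeR). Over the 11 subunits the log2 fold changes ran from -0.21 to 0.15.

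Psmd5, Psmd9 and Psmd10 encode chaperones that assemble the ATPase ring and leave the finished particle. Psmd9 had the most reads and the largest difference of these. It was at 32.6, 25.6 and 26.03 CPM in NP and at 30.8, 30.7 and 28.9 CPM in LP, and the groups overlapped (log2 fold change 0.086, SE 0.134, edgeR adjusted p = 0.721). Psmd5 and Psmd10 had log2 fold changes of 0.0076 and 0.016. With 22 to 36 reads per library Psmd10 was among the shallowest members, and its 95% interval ran from a fold of 0.702 to 1.46.

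Of the activators, Psme4 rose as given above. Psme1 and Psme2 encode the subunits of PA28, an interferon-inducible cap, and had log2 fold changes of 0.076 and -0.010 with edgeR adjusted p of 0.688 and 0.968. Psme3, the third PA28 gene, and Psmb11, the beta subunit of the thymus, had no row in the tables analysed here. Psmc3ip was selected through its symbol but is no proteasome subunit, as its product takes part in meiotic recombination. It was at 11.5, 8.22 and 10.9 CPM in NP and at 13.1, 8.93 and 12.5 CPM in LP, and the groups overlapped (fold 1.13, 95% interval 0.805 to 1.59, edgeR adjusted p = 0.649).

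**Figure D2:**
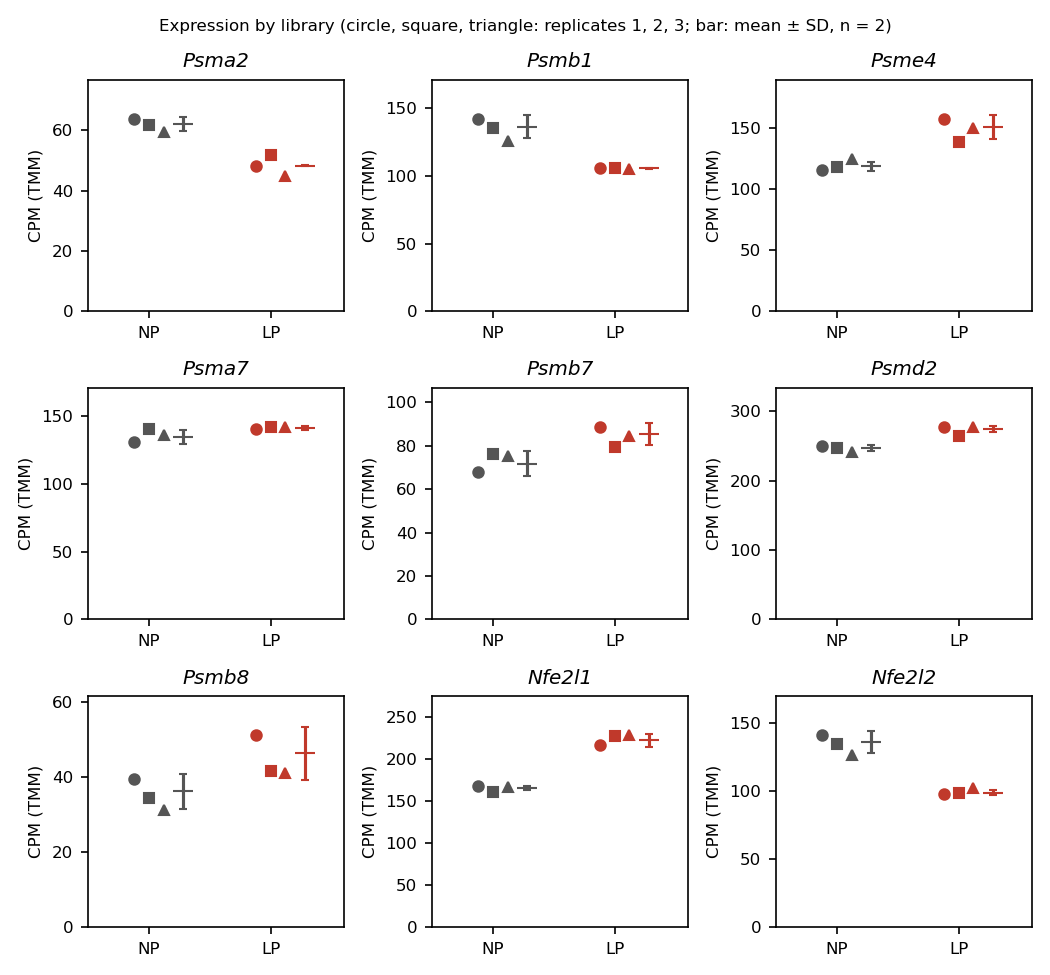
Expression in CPM (vertical axis, from 0) of 9 genes in each NP library (grey) and LP library (red), with circle, square and triangle for replicates 1, 2 and 3. The bar is the mean ± SD of n = 2 samples, replicates 2 and 3 being counted as 1. Psma2, Psmb1 and Nfe2l2 are lower and Psme4 and Nfe2l1 higher in every LP library, while the Psma7 libraries of the groups overlap.

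Over the 37 genes the log2 fold changes ran from -0.37 to 0.33 with a median of -0.013, next to a median of -0.011 over all genes tested. The quartiles were -0.18 and 0.063 for the members and -0.20 and 0.22 for all genes. The median absolute log2 fold change was 0.098 for the members and 0.208 for all genes. Among the 9221 genes with a mean of 28.7 to 812.5 reads, the range of the members, it was 0.185, and 22.6% of these genes were called, next to 8.11% of the members. The upper quartile thus lay nearer to 0 for the members than for all genes.

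The 95% intervals describe the spread between these samples, which may be technical, so they may not cover the spread between animals. Over the members, the chi-square per gene between libraries of a group was 0.802 to 1.36. All 37 intervals lay within a fold of 2 in either direction, and 35 lay within a fold of 1.5, the exceptions being Psma3 and Psmc3ip. The median SE of a member was 0.079 on the log2 scale. A tested member had a median of 240.5 reads in a library and never fewer than 22. Within a group the highest library exceeded the lowest by a median factor of 1.13 in NP and 1.11 in LP.

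**Figure D3:**
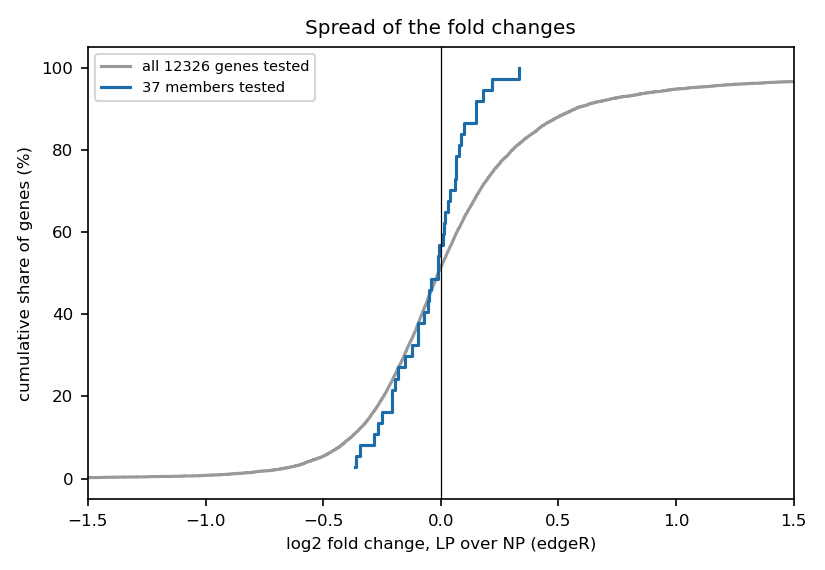
Cumulative share of genes (vertical axis, percent) by log2 fold change of LP over NP (horizontal axis, edgeR) for the 37 members tested (blue) and all 12326 genes tested (grey). The curve of the members starts at -0.37 and reaches 100% at 0.33, while that of all genes runs past both ends.

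Counted without a model, every LP library was above every NP library for 3 of the 37 members, Psmb7, Psmd2 and Psme4, against 21.0% of all genes tested. Every LP library was below every NP library for 7 of the 37, Psma2, Psma3, Psma4, Psma6, Psmb1, Psmc6 and Psmd13. This share was close to the 18.4% of all genes. These counts rested on the TMM scaling, and with library totals alone the 7 became 13. The share of all genes for that count was not computed with library totals alone. The members took 0.306% to 0.312% of the counted reads in NP and 0.290% to 0.294% in LP, so on this unscaled share the groups did not overlap. With library totals alone the median log2 fold change was -0.080 for the members, next to -0.078 for all genes tested.

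Summed levels were compared by role. These sums weight each gene by its reads and are a description without a test. The alpha ring summed to 463, 462 and 456 CPM in NP and to 423, 434 and 431 CPM in LP, a ratio of group means of 0.928. The beta ring summed to 557, 534 and 545 CPM in NP and to 494, 527 and 504 CPM in LP, a ratio of 0.922. For both rings of the core every LP library was below every NP library. Psmb1, whose mean went from 136 to 106 CPM, contributed most to the lower sum of the beta ring. Of the 6 beta members tested, Psmb1 was the only 1 with every LP library below every NP library. Of these 6, 2 had a log2 fold change above 0.

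The ratios of the caps were higher. The ATPase ring had a ratio of 0.975 and the other 19S subunits of 1.01, the latter turning to 0.964 with library totals alone. The 19S assembly factors had a ratio of 1.02, with overlapping groups. The activators summed to 237, 218 and 226 CPM in NP and to 272, 253 and 253 CPM in LP, a ratio of 1.14, to which Psme4 contributed most. All 39 members together had a ratio of 0.986. The difference between roles was not tested.

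**Figure D4:**
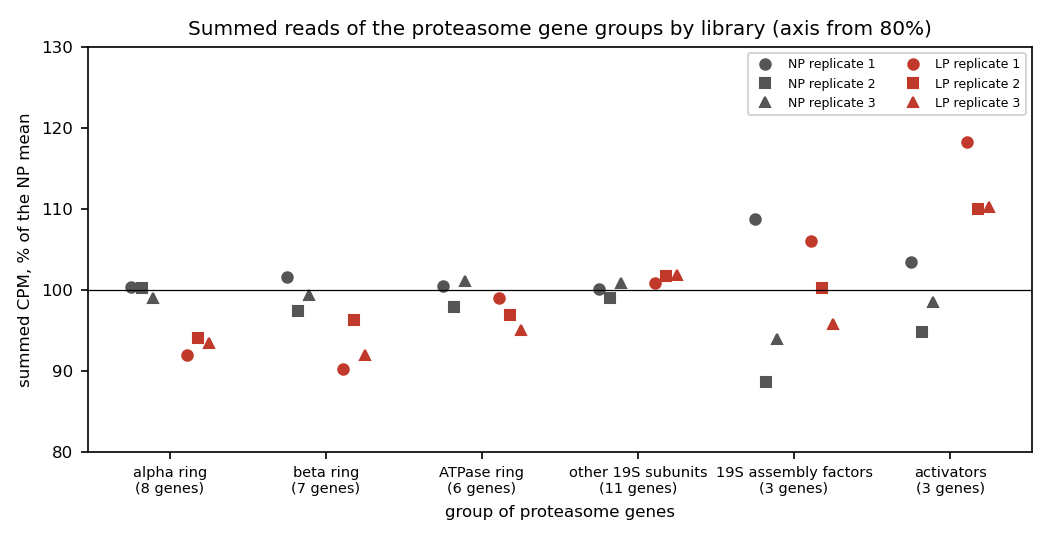
Summed CPM of the genes of each role, as a percentage of the NP mean (vertical axis from 80%), for each NP (grey) and LP (red) library, with circle, square and triangle for replicates 1, 2 and 3. The alpha and beta ring points of LP lie below 100 and below those of NP, and the activator points of LP lie above those of NP.

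The immunoproteasome subunits Psmb8, Psmb9 and Psmb10 take the place of Psmb5, Psmb6 and Psmb7 in cells exposed to interferon. None of the 3 was called in the fit of 2 samples per group. Psmb8 was at 39.4, 34.5 and 31.3 CPM in NP and at 51.3, 41.7 and 41.1 CPM in LP, so that every LP library was above every NP library. Its log2 fold change was 0.35 (SE 0.130, edgeR adjusted p = 0.0836). It passed the test with the replicate block (edgeR adjusted p = 0.0126), with the 6 libraries as deposited (0.0331) and with both (0.00553). In 11 of 15 alternatives Psmb8 was again not called, and DESeq2 called 0 of the 3 subunits. Without NP replicate 1, which leaves 1 NP sample, the log2 fold change of Psmb8 was 0.45. Psmb9 and Psmb10 had log2 fold changes of 0.17 and 0.0013 with overlapping groups and edgeR adjusted p of 0.457 and 0.997.

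Of 12 interferon-induced genes or interferon regulators tested, 10 were higher in LP and none lower (edgeR), against 12.3% and 8.36% of all genes tested, and DESeq2 called 7. Irf7, a regulator of type I interferon, rose by 1.58 on the log2 scale (SE 0.123, edgeR adjusted p = 2.49e-06), from 23.7, 14.5 and 21.4 CPM in NP to 59.9, 58.9 and 59.9 CPM in LP. Mx2, an antiviral gene, and Usp18, which removes the ubiquitin-like tag ISG15, had log2 fold changes of 1.58 and 1.53. Oas2 had the largest fitted change, from 0 to 1.32 CPM in NP to 2.98 to 4.49 CPM in LP, a level near the limit of the depth. DESeq2 did not call Oas2 (adjusted p = 0.0625), Ifit3 (0.158) or Rsad2 (0.437). The call of Rsad2 was also lost without NP replicate 2 (edgeR adjusted p = 0.0662) and without LP replicate 3 (0.129). It was lost as well without LP replicate 1, which leaves 1 LP sample. Irf1, which drives the immunoproteasome genes, had a log2 fold change of 0.24 and did not pass the test (edgeR adjusted p = 0.130), and neither did Ifit2. The median log2 fold change of this list was 1.28, next to that of -0.011 over all genes tested.

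Among the genes that control proteasome expression, 1 of 11 tested was higher and 1 lower (edgeR), against 12.3% and 8.36% of all genes tested. Nfe2l1, which encodes Nrf1, rose from 168, 161 and 167 CPM in NP to 218, 227 and 230 CPM in LP (log2 fold change 0.43, SE 0.071, edgeR adjusted p = 0.00119). Nfe2l2, which encodes the oxidative stress factor Nrf2, fell from 141, 134 and 126 CPM to 97.5, 98.2 and 102 CPM (log2 fold change -0.45, SE 0.074, edgeR adjusted p = 0.000969). The groups did not overlap for either gene, and both calls held in all 15 alternatives. The other 9 genes tested were Keap1, Mafg, Mafk, Maff, Ddi2, Ngly1, Nfya, Nfyb and Nfyc, and Nfe2l3 was too low to be tested.

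The genes for 20S assembly and for partners of the 26S particle gave 0 calls among 10 tested (edgeR). Over all genes tested 12.3% were higher and 8.36% lower. DESeq2 also called 0 of the list, against 6.76% higher and 2.73% lower over all genes. Of the 10, 1 had an unadjusted p below 0.05 (edgeR), against 32.2% of all genes. The median log2 fold change of the list was -0.048. Pomp, the chaperone of the beta ring, had 0 to 1 reads in each library and was not tested. Ube3c, a ligase on the proteasome, was the gene with the unadjusted p below 0.05, with a log2 fold change of -0.19 (edgeR adjusted p = 0.109, with the replicate block 0.0316).

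Of 14 genes tested for delivery to the proteasome, 2 were higher and 2 lower (edgeR), and DESeq2 called 1. Over all genes tested 12.3% were higher and 8.36% lower (edgeR). The list held cofactors of the segregase p97, which extracts substrates and hands them to the proteasome. Of these cofactors Ufd1l, Nsfl1c, Faf1, Ubxn1 and Ubxn7 were not called, with log2 fold changes of -0.13, -0.013, -0.086, 0.12 and 0.046. Nploc4 had a log2 fold change of 0.28 (edgeR adjusted p = 0.0169). Ubxn4 and Faf2, p97 cofactors of the endoplasmic reticulum, fell by 0.40 and 0.31 on the log2 scale (edgeR adjusted p = 0.00180 and 0.0145). The call of Ubxn4 held in all 15 alternatives, while that of Nploc4 was lost in 3 and that of Faf2 in 2. Vcp, which encodes p97 itself, had a log2 fold change of -0.087 (edgeR adjusted p = 0.392, with the replicate block 0.0335).

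Ubiquitin ligases of muscle and their adaptors moved with the muscle markers. Of 5 tested, 4 were higher in LP (edgeR), against 12.3% of all genes tested. Klhl41 went from 2.63 to 3.62 CPM in NP to 181 to 195 CPM in LP, Trim63 from 0.329 to 0.989 CPM to 21.1 to 24.4 CPM, and Fbxo32 from 8.25 to 16.8 CPM to 29.2 to 35.4 CPM. Asb5 had 0 to 0.717 CPM in NP and 11.0 to 12.2 CPM in LP. Fbxo30 was not called. With a scaling computed without the muscle markers and without genes changed by a fold above 2, the calls among the members were again 1 higher and 2 lower, with the same 3 genes.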

How the data were processed

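Reads were aligned by the authors with TopHat 1.4.0 on the rat build rn5. They then counted them with HTSeq-count on Ensembl gene models and deposited whole-number read counts for each gene without normalization. The strand setting and the treatment of reads with several hits were not given in the sources used here. Counts from these deposited tables were read into R 4.3.3, and the tools were edgeR 4.0.16 (which loads limma 3.58.1) and, as an alternative, DESeq2 1.42.0.

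A chi-square test set each pair of libraries side by side, on genes holding 10 or more reads in the pair. Replicates 2 and 3 of each group were within sampling noise and were summed, which left 2 samples per group. The paper reports thyroids from 3 rats in each of these groups. The labels call the libraries repeats and tie none to a given animal, so the p-values measure only the spread between these samples, which may be technical. Whether each library came from its own rat cannot be told from the counts. The difference between LP and NP was tested with edgeR (glmQLFit and glmQLFTest, TMM scaling, filterByExpr, Benjamini-Hochberg). The SE of a log2 fold change was its absolute value over the square root of F. CPM values were scaled by TMM over the 6 libraries. Lengths were not used, so levels were not compared between genes. Limits from depth cover counting error only. Deviations from the group means correlated at 0.493, 0.223 and 0.192 between same-numbered libraries, and at 0.216 in both crossings of replicates 2 and 3, so the numbers separate replicate 1 but not 2 from 3. Every same-numbered value was over 0.1, and a fit with the replicate number as a block was made as well.

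The members and gene lists were chosen with earlier results of these data known. Values by library are given for members past the threshold and, in each role, for the member with the largest change and that with the most reads. Psmb7 and Psmd13, outside this rule, were added after their values were seen. Of each further list, at most 4 genes past the threshold in each direction are named, and a few that did not pass were added after their values were seen. Promoters and pseudogenes came from RefSeq on GRCr8, where 39 members matched by symbol, and no gene coordinates on rn5 were used. Alternatives were other scalings, other filters, an adjusted p below 0.01, the replicate block, all libraries as deposited, each library left out and DESeq2. The edgeR fits of 2 samples per group and of the 6 libraries, the DESeq2 fit and the chi-square test were tested on simulated data. The other steps were not. A few genes are not reported here.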

Additional observations from a re-analysis of the deposited data

How the results depend on the processing

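Of the 3 calls among the members, each held in all alternatives of edgeR except that of Psme4 without LP replicate 1. That fit had 1 LP sample. DESeq2 lost all 3 calls. The number called higher, 1, became 2 with the replicate block, 2 with the 6 libraries as deposited, 3 with both and 0 with DESeq2, and ranged from 0 to 1 with each library left out. The number called lower, 2, became 6 with the replicate block, 4 with the 6 libraries, 6 with both, 8 with library totals alone and 0 with DESeq2, and ranged from 2 to 4 with each library left out, the 4 arising without LP replicate 2. Over all genes, 1511 were higher and 1030 lower, against 1966 and 1666 with the replicate block and 833 and 336 with DESeq2. With the block and the 6 libraries together, 17.5% of all genes tested were higher and 14.7% lower. With each library left out, 9.44% to 12.6% were higher and 5.40% to 8.24% lower. With library totals alone 1297 were higher and 1647 lower, so that the share of calls that were higher went from 59.5% to 44.1%. That scaling moved the median log2 fold change of the members to -0.080 and that of all genes to -0.078. The number of members with every LP library below every NP library went to 13, without a share of all genes computed beside it. The same scaling moved the summed ratios of LP over NP to 0.884 for the alpha ring, 0.928 for the ATPase ring, 0.964 for the other 19S subunits, 1.09 for the activators and 1.08 for Psmc3ip. Without the fold criterion of 2, the members called were 3 rather than 0. No call among the members reversed, and the cause of each shift was not tested. At this depth a tested member had at least 22 reads in a library.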
